A study of Bos taurus with 6 samples.

Results

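Genes of DNA replication and mitosis were followed across the rumen, the liver and the forebrain of male Holstein cattle fetuses by poly(A) RNA sequencing. The members were all rows of the gene count table whose symbols belong to families named for these processes: MCM, CDC, CENP, ORC, GINS, RFC, E2F, AURK, PLK, BUB and NCAP, the cyclins A, B, D and E, the cyclin-dependent kinases (CDK), RRM1, RRM2 and UBE2C. The rule reads symbols alone, though it was written with earlier results of these data known, and gave 122 of the 14179 symbols. Of these, 85 were assigned a role in replication, cell cycle control or chromosome segregation and are called cell cycle members here. The other 37 were not assigned to these roles, such as the small GTPase CDC42 and the kinases CDK5 and CDK9, and are described last. Some of the 37 may also act in the cycle. MCM2, MCM10, GINS2, CENPE, TOP2A and TOP2B were not analysed here. Each tissue had 2 libraries, called Rumen 1 and 2, Liver 1 and 2, and Forebrain 1 and 2. All were labelled wild type (WT), male and 90 days of age, from fetuses of slaughtered Holstein cows that measured 13 to 16 cm from crown to rump. The labels name 2 male fetuses, so the 6 libraries came from at most 2 animals, without naming the animal behind each. The p-values cover the spread between these libraries alone, and that spread may be technical.

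A dividing cell licenses its replication origins once, when the origin recognition complex (ORC) and CDC6 load the MCM helicase onto DNA. CDC45 and the GINS complex then turn the loaded helicase into a moving fork, the RFC clamp loader places the sliding clamp, and ribonucleotide reductase supplies the nucleotides. Cyclins drive CDKs through these steps, E2F factors switch many of the genes on, and in mitosis condensin compacts chromosomes while centromere proteins, the BUB checkpoint and Aurora and Polo-like kinases guide their separation. The fetal liver is a site of red blood cell formation by rapidly dividing erythroid precursors, whereas many cells of the developing forebrain are neurons that have left the cycle. The rumen, the main fermentation chamber of the adult stomach, is at this stage an epithelium on a mesenchymal and muscular wall.

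Total counts lay between 10271024 and 18528958 per library. A level in CPM is the count divided by the library's effective size, its total times a TMM factor, in megacounts. A gene was called where its Benjamini-Hochberg adjusted p in edgeR's quasi-likelihood test was below 0.05, and log2 fold changes are those of that fit. In bulk tissue, fewer cells of a type and less RNA per cell cannot be told apart. The labelled tissues carried their defining transcripts. A list of 8 rumen wall genes, among them KRT15 and PITX1, summed to 15870 ± 1630 CPM in rumen, 72.9 ± 7.82 CPM in liver and 30.3 ± 9.88 CPM in forebrain (SD, n = 2 each). The 8 hepatocyte genes summed to 207100 ± 21300 CPM in liver, and the 8 neuron genes to 11290 ± 318 CPM in forebrain. The 10 erythroid genes summed to 9.81 ± 0.0268 CPM in rumen, 9618 ± 3270 CPM in liver and 10.7 ± 0.774 CPM in forebrain, and EPB42 and GATA1 had no counts in either rumen library. All 10 erythroid genes passed the test as higher in liver than in rumen and in forebrain. The 8 radial glia genes, of which SOX2, NES and VIM are also used by other tissues, summed to 1570 ± 0.457 CPM in rumen, 189.6 ± 49.3 CPM in liver and 1870 ± 413 CPM in forebrain. VIM alone had a mean of 1281 CPM in rumen. In rumen against forebrain, 5 of the 8 (62.5%) were lower and 2 (25%), NES and VIM, higher, beside 19.9% and 19.5% of all genes tested. These cell types moved with the tissues, and their part in the results on replication and mitosis genes was not tested.

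The cell cycle members formed a descending order, with liver highest, rumen between and forebrain lowest. Their summed level was 3262 and 3415 CPM in rumen, 9231 and 8763 CPM in liver, and 2079 and 2028 CPM in forebrain, so that the libraries of different tissues did not overlap. Of the 85, liver had the highest mean in 65 (76.5%), against 39.9% of all 11478 genes tested, and forebrain the lowest in 67 (78.8%), against 37% of all. The 30 cell cycle members called in all 3 comparisons each had the order liver above rumen above forebrain. They made up 35.3% of the cell cycle members, and the same set of calls was held by 3.59% of all genes tested. The 30 included 4 of 6 MCM genes, 4 of 6 condensin genes, 4 of 8 cyclins, 4 of 9 checkpoint and anaphase genes and 2 of 7 origin genes, and no clamp loader gene.

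**Figure D1:**
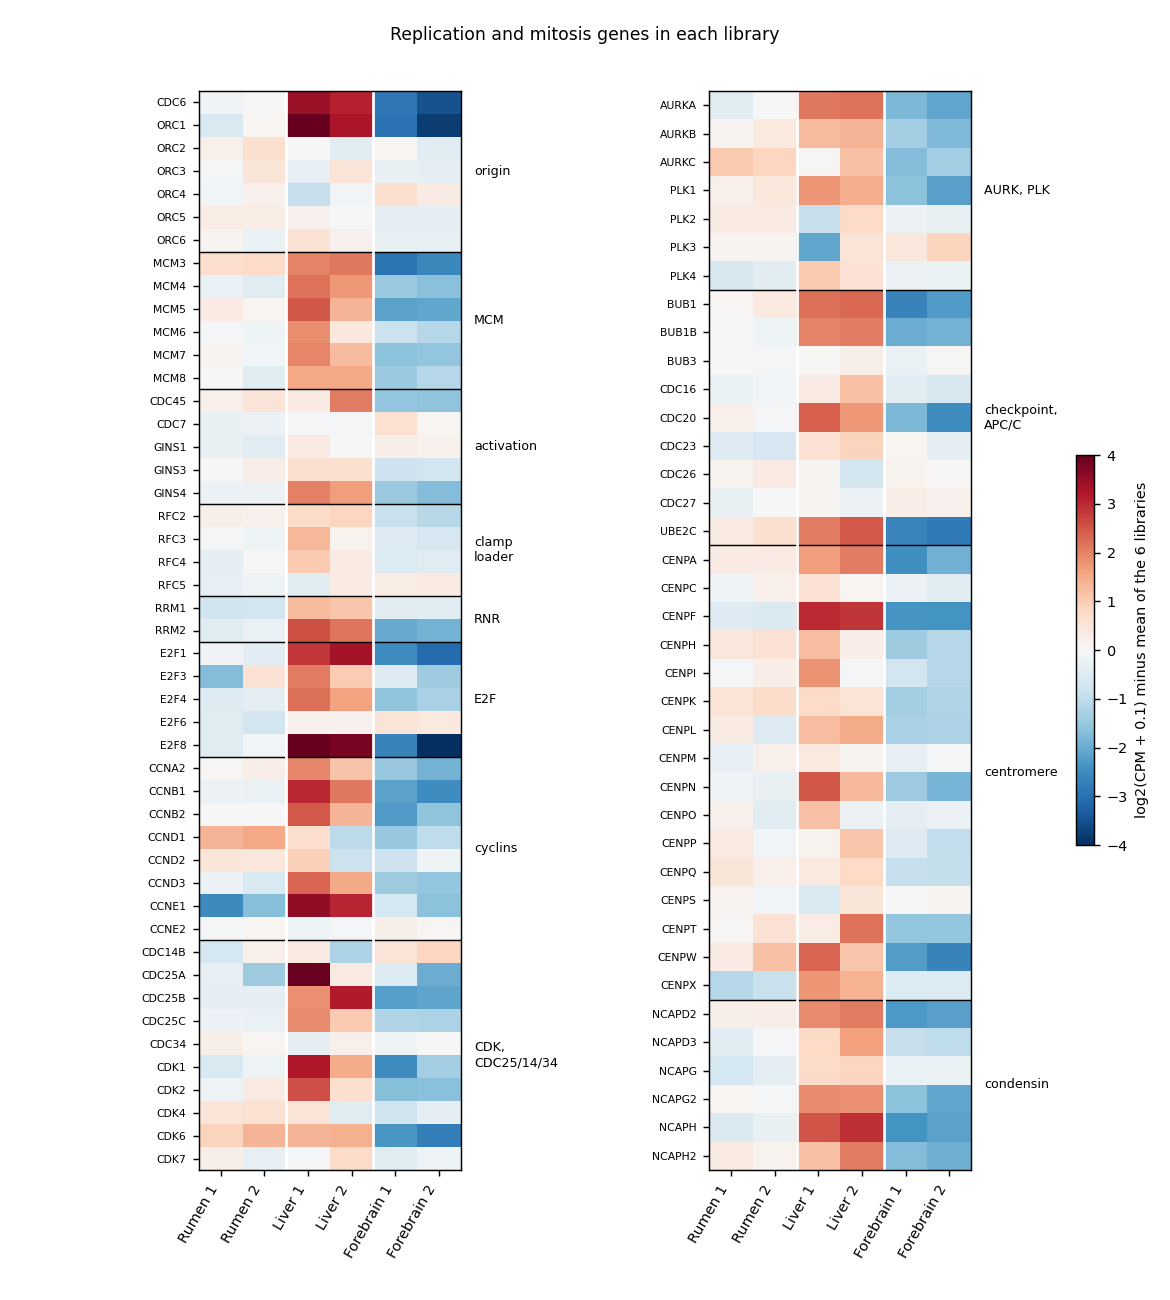
Each row is 1 of the 85 cell cycle members and each column 1 library; colour gives log2(CPM + 0.1) minus the mean of the 6 libraries (red above, blue below), with role groups separated by black lines. Most rows are red in both liver libraries and blue in both forebrain libraries, with rumen near the middle, while rows such as ORC2, BUB3, CCNE2 and CDC27 stay pale throughout.

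Rumen against forebrain set the developing stomach wall beside the developing brain. Of the 85 cell cycle members, all of which passed the filter on low counts, 42 were higher in rumen and 1 lower, or 49.4% and 1.18%. Among all genes tested, 19.5% were higher and 19.9% lower, 39.3% in all. The median log2 fold change was 1.10 over the cell cycle members and -0.01 over all genes. Both rumen libraries lay above both forebrain libraries in 63 of the 85 and below them in 14, where 39.7% and 41.4% of all genes did so. Of all 122 members, 121 were tested, with 49 higher and 5 lower. Without any 1 of the rumen and forebrain libraries, fewer cell cycle members were called higher, and fewer of all genes. Without either liver library, more of both were called, in either direction. Most of the 42 lost the call in at least 1 of the 6 fits that left out 1 library. The members' median log2 fold change was 1.08 without Rumen 1, 1.26 without Rumen 2, 1.25 without Forebrain 1 and 1.19 without Forebrain 2. It was 1.10 without Liver 1 and 1.10 without Liver 2. Over all genes, the medians in these fits lay between -0.043 and 0.002. The calls of CDK4, CENPL, CENPQ and GINS3 were lost under RLE scaling and without scaling factors, those of CCND3, CENPT and GINS4 without scaling factors, and those of CENPQ and GINS3 also without the filter.

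The comparison of rumen with liver set the stomach wall beside a blood-forming organ. In rumen, 0 of the 85 cell cycle members were higher and 45 lower, or 52.9%, where 20.1% of all genes were higher and 20.3% lower, 40.3% in all. No cell cycle member was higher at an unadjusted p below 0.05 or by DESeq2 either. The median log2 fold change was -1.32, against -0.06 over all genes. Both rumen libraries lay below both liver libraries in 56 members and above them in 6, where 34.6% of all genes did each. Of all members tested, 4 were higher and 50 lower. Without either rumen library, fewer cell cycle members were called lower, and fewer of all genes. Most of the 45 lost the call in at least 1 of the 6 fits that left out 1 library. The members' median was -1.195 without Rumen 1 and -1.354 without Rumen 2, with -0.116 and -0.079 over all genes. It was -1.142 without Liver 1 and -1.272 without Liver 2, with 0 over all genes in each. Without either liver library, a few cell cycle members were called higher in rumen, and more of all genes were. The calls of CDC16, CDC25A, CDC25C, CENPL, E2F6, MCM6 and MCM8 were lost without scaling factors and with only the 2 tissues in the fit, and those of AURKB and CDC23 without scaling factors. Those of CDC16 and E2F6 were also lost under RLE scaling, and that of E2F6 without the filter.

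Liver against forebrain gave the widest separation. In liver, 58 of the 85 cell cycle members were higher and 1 lower, or 68.2% and 1.18%, where 29.4% of all genes were higher and 25.9% lower, 55.3% in all. The median log2 fold change was 2.32, against 0.14 over all genes, and both liver libraries lay above both forebrain libraries in 67 members and below them in 6, where 40.1% and 37.8% of all genes did so. Of all members tested, 70 were higher and 9 lower. Some of the 58 lost the call in at least 1 of the 6 fits that left out 1 library. In those fits the members' median lay between 2.17 and 2.505, and that of all genes between 0 and 0.19. The calls of CENPI, CENPP and RFC3 were lost without scaling factors and with only the 2 tissues in the fit, those of CDC16, CENPQ, NCAPG, PLK4 and RFC4 without scaling factors, and those of CDC25A and ORC4 with only the 2 tissues. Scaling mattered for the background. Without TMM factors, higher genes made up 62.5% of all calls in rumen against liver, 49.8% with them, and 39.3% in liver against forebrain, 53.2% with them. The medians of the cell cycle members were then 0.95, -0.99 and 1.81 in the 3 comparisons in the order above, each with its sign kept.

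**Figure D2:**
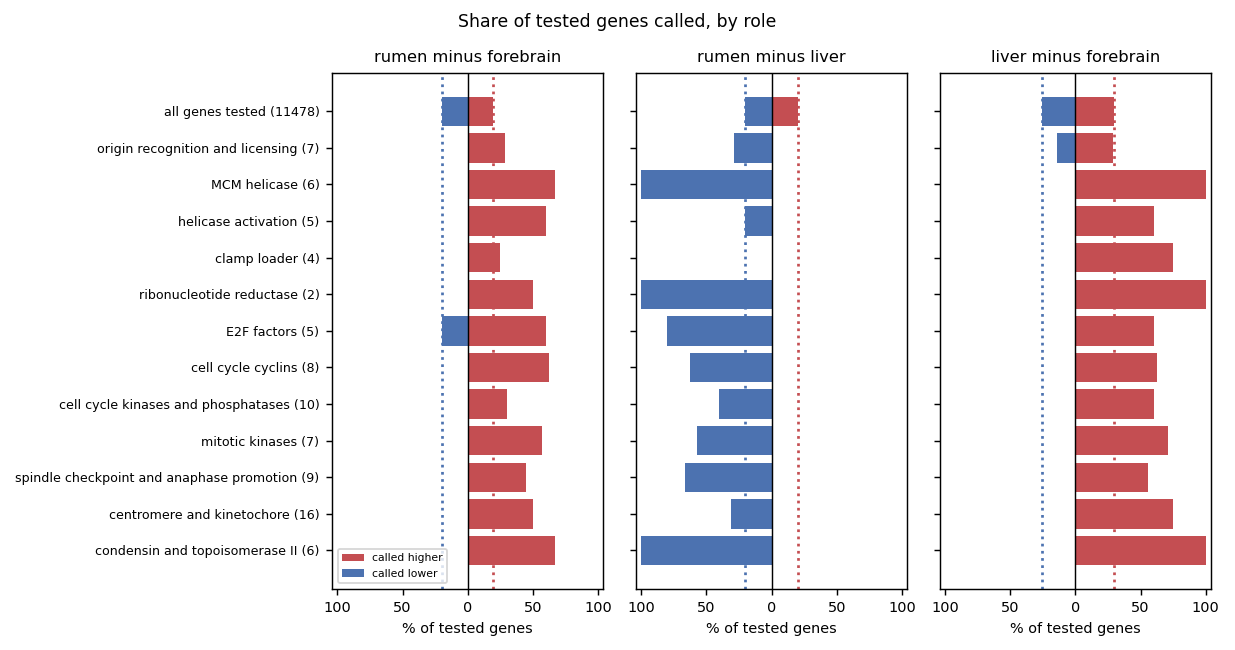
Bars give the share of tested genes called higher (right, red) or lower (left, blue) in each of the 3 comparisons, for all genes and for 12 role groups with the number tested in brackets; dotted lines repeat the shares of all genes. All 6 MCM genes, all 6 condensin genes and both reductase genes were lower in rumen than in liver and higher in liver than in forebrain.

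Of the 7 origin genes, ORC1 and CDC6 had all 3 calls, a set held by 3.59% of all genes tested. ORC1, the largest subunit of the origin recognition complex, stood at 4.13 and 6.71 CPM in rumen, 105 and 62.4 CPM in liver, and 0.732 and 0.361 CPM in forebrain. CDC6, which joins ORC to load the helicase, stood at 5.28 and 5.7 CPM in rumen, 65 and 51.3 CPM in liver, and 0.732 and 0.433 CPM in forebrain. For both genes the libraries of the 3 tissues were fully separated, with 9 and 5 counts of ORC1 in the forebrain libraries. ORC1 was 9.89-fold higher in rumen than in forebrain (log2 fold change 3.31 ± 0.53 (SE), adjusted p = 0.0043) and 15.4-fold lower than in liver (log2 fold change -3.95 ± 0.46 (SE), adjusted p = 0.0012). CDC6 was 9.37-fold higher in rumen than in forebrain (adjusted p = 0.00172) and 10.6-fold lower than in liver (adjusted p = 0.000776). Both passed in every fit that left out 1 library. In liver against forebrain the 2 genes reached log2 fold changes of 7.25 and 6.63. No other ORC subunit was called in rumen against either tissue. ORC2 stood at 33.1 and 45 CPM in rumen, 28.3 and 21.1 CPM in liver, and 30.2 and 20.9 CPM in forebrain, a spread in which rumen lay above the other tissues and liver overlapped forebrain, with no call. ORC6, the small subunit, stood at 23 and 17.6 CPM in rumen, 31.6 and 24 CPM in liver, and 17.5 and 17.2 CPM in forebrain, in the order liver, rumen, forebrain but without a call in any comparison. ORC3 and ORC5 were not called either, and ORC4 was called once, in the opposite direction. It was 1.94-fold lower in liver than in forebrain (adjusted p = 0.0439), but not without any 1 of the forebrain and rumen libraries.

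All 6 MCM genes, of which MCM3 to MCM7 are subunits of the replicative helicase, were higher in liver than in both other tissues. Among all genes tested, 20.3% were lower in rumen than in liver and 29.4% higher in liver than in forebrain. MCM3 stood at 119.8 and 129 CPM in rumen, 297 and 325 CPM in liver, and 9.92 and 12.5 CPM in forebrain. MCM5 stood at 95 and 80.6 CPM in rumen, 427 and 195 CPM in liver, and 17.2 and 18 CPM in forebrain, and MCM7 at 146 and 126 CPM in rumen, 524 and 330.4 CPM in liver, and 43.3 and 46 CPM in forebrain. In all 3 genes every liver library lay above every rumen library, and every rumen library above forebrain. MCM3 had the widest gap between rumen and forebrain of the group, at 11.1-fold higher (log2 fold change 3.47 ± 0.24 (SE), adjusted p = 0.000332), and was 2.5-fold lower in rumen than in liver (adjusted p = 0.00449). MCM5 was 4.98-fold higher in rumen than in forebrain and 3.55-fold lower than in liver, and MCM4 2.3-fold higher and 5.11-fold lower. MCM7 was 3.04-fold higher in rumen than in forebrain and 3.15-fold lower than in liver. MCM6, and MCM8, a related helicase of DNA repair, were lower in rumen than in liver and higher in liver than in forebrain, without a call between rumen and forebrain (log2 fold change 0.87, adjusted p = 0.176 and log2 fold change 1.10, adjusted p = 0.161). Summed over the 6 genes, the level was 493 and 454.5 CPM in rumen, 1855 and 1198 CPM in liver, and 138 and 134 CPM in forebrain. Against forebrain, the rumen call of MCM5 was lost without Forebrain 1, that of MCM7 without Rumen 1 or either forebrain library, and that of MCM4 without any 1 of the forebrain and rumen libraries. Against liver, the calls of MCM3 and MCM5 were lost without either rumen library, that of MCM7 without Rumen 2, and those of MCM6 and MCM8 without any 1 of the rumen and forebrain libraries. In liver against forebrain, the call of MCM6 was lost without Forebrain 2 and that of MCM8 without either forebrain library.

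Of 5 helicase activation genes and 4 clamp loader genes, 1 and 0 were lower in rumen than in liver, or 20% and 0%. Among all genes tested, 20.3% were lower there. CDC45, which rides with the MCM ring in the active helicase, stood at 42.9 and 53.7 CPM in rumen, 46.9 and 158 CPM in liver, and 12.8 and 12.2 CPM in forebrain. Rumen lay above forebrain in both libraries, while Liver 1 fell between the 2 rumen values and Liver 2 far above them. CDC45 was 3.87-fold higher in rumen than in forebrain (adjusted p = 0.0316) and not called against liver (log2 fold change -1.08, adjusted p = 0.149). Of the GINS subunits, GINS4 was 2.62-fold higher in rumen than in forebrain and 4.33-fold lower than in liver, and GINS3 was 1.93-fold higher in rumen than in forebrain. GINS1 stood at 38.3 and 35.1 CPM in rumen, 58.7 and 45.7 CPM in liver, and 54.9 and 52 CPM in forebrain, and CDC7, the kinase that fires origins, at 42.5 and 44.2 CPM in rumen, 50.5 and 49.9 CPM in liver, and 79.5 and 55.3 CPM in forebrain. Neither was called in any comparison, and in both the rumen libraries lay below the forebrain libraries. Among clamp loader genes, RFC2 was 2.3-fold higher in rumen and 3.47-fold higher in liver than in forebrain. RFC3 and RFC4 were called only in liver against forebrain, at 2.73-fold higher and 2.37-fold higher. RFC5 stood at 96.6 and 108 CPM in rumen, 89.4 and 154 CPM in liver, and 149 and 153 CPM in forebrain without a call. Reads of GINS1, RFC4 and RFC5 may be shared with the coding genes PCMTD2, EIF4A2 and KSR2, whose spans overlap theirs in RefSeq. The rumen against forebrain calls of CDC45, GINS3 and GINS4 were lost without any 1 of the forebrain and rumen libraries, and that of RFC2 without Rumen 1 or either forebrain library. Against liver, the call of GINS4 was lost without either rumen library. In liver against forebrain, the calls of GINS3 and RFC4 were lost without either forebrain library, and that of RFC3 without any 1 of the forebrain and rumen libraries.

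Both subunits of ribonucleotide reductase were lower in rumen than in liver, and 1 was higher in rumen than in forebrain. Among all genes tested, the shares were 20.3% and 19.5%. RRM2, the small subunit whose amount follows S phase, stood at 84.4 and 98.5 CPM in rumen, 694 and 532 CPM in liver, and 29.4 and 31.9 CPM in forebrain. RRM1, the large subunit, stood at 88.3 and 92.2 CPM in rumen, 367 and 328 CPM in liver, and 114 and 115 CPM in forebrain. In RRM2 rumen lay above forebrain, and in RRM1 below it, with liver far above both in each gene. RRM2 was 2.98-fold higher in rumen than in forebrain (log2 fold change 1.58 ± 0.24 (SE), adjusted p = 0.00334), whereas RRM1 was not called there (log2 fold change -0.35, adjusted p = 0.206). Against liver, RRM2 was 6.7-fold lower and RRM1 3.85-fold lower in rumen. These calls passed in all 6 fits that left out 1 library.

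Of the 5 E2F factors, 3 had all 3 calls, namely E2F1, E2F4 and E2F8, beside 3.59% of all genes tested. E2F8, a repressor of the family, stood at 1.84 and 2.42 CPM in rumen, 48.5 and 37.4 CPM in liver, and 0.325 and 0 CPM in forebrain, with 4 counts in Forebrain 1 and none in Forebrain 2. It was 20.1-fold lower in rumen than in liver (log2 fold change -4.33 ± 0.69 (SE), adjusted p = 0.00391), and its call above forebrain (adjusted p = 0.0178) was lost without Forebrain 2 or either rumen library. E2F1, an activator of S phase genes, stood at 23.3 and 18.4 CPM in rumen, 181 and 255 CPM in liver, and 4.47 and 2.96 CPM in forebrain. The tissues were fully separated, and E2F1 was 5.61-fold higher in rumen than in forebrain (log2 fold change 2.49 ± 0.33 (SE), adjusted p = 0.00213) and 10.4-fold lower than in liver (adjusted p = 0.000619). E2F4, which with RB family proteins represses cycle genes in resting cells, had the same order at smaller folds, 2.01-fold higher in rumen than in forebrain and 5.18-fold lower than in liver. The call above forebrain was lost without any 1 of the forebrain and rumen libraries. E2F6, a repressor outside RB control, stood at 21.6 and 18.3 CPM in rumen, 34.1 and 34.4 CPM in liver, and 43.2 and 40.2 CPM in forebrain. It was the 1 cell cycle member lower in rumen than in forebrain (2.09-fold lower, adjusted p = 0.0165) and was also lower than in liver (adjusted p = 0.0453), but neither call held without any 1 of the forebrain and rumen libraries. E2F3, an activator, stood at 0.153 and 1.17 CPM in rumen, 3.42 and 1.61 CPM in liver, and 0.488 and 0.216 CPM in forebrain and was not called.

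**Figure D3:**
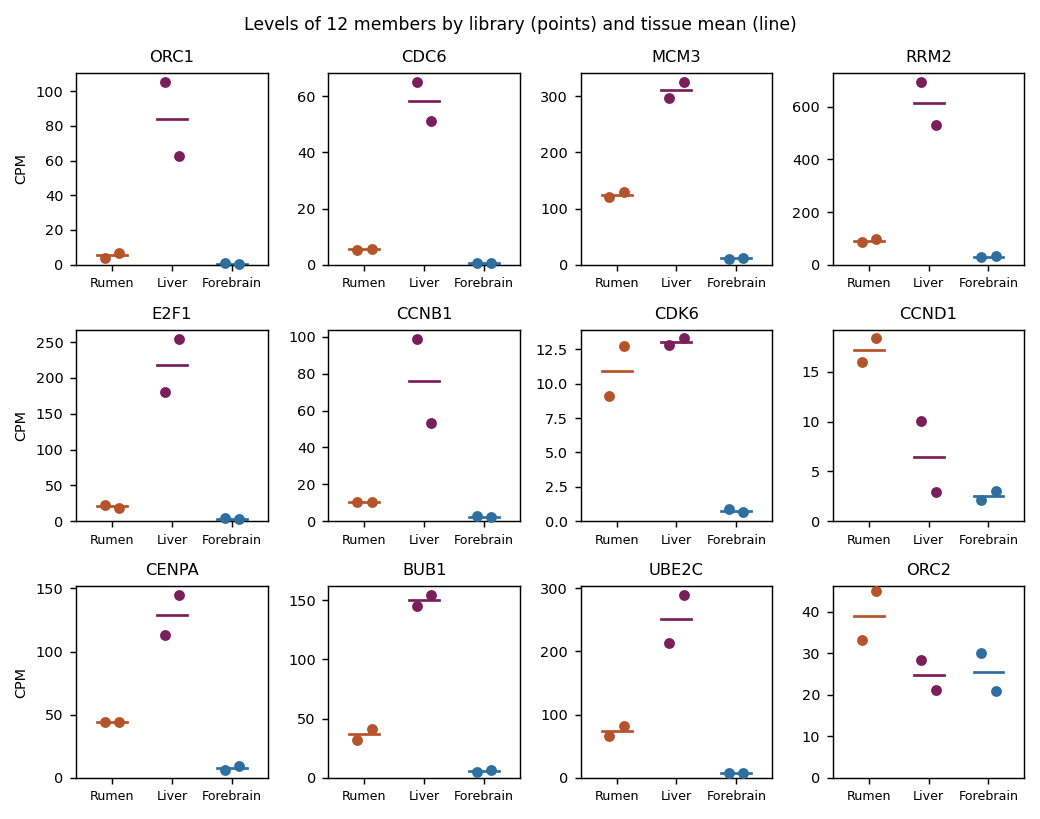
Points give the CPM of 12 members in each of the 2 libraries per tissue, lines the tissue mean, with a linear axis from 0 in each panel. ORC1, CDC6, MCM3, RRM2, E2F1, CCNB1, CENPA, BUB1 and UBE2C fall from liver through rumen to forebrain, CDK6 is close in rumen and liver, CCND1 is highest in rumen, and ORC2 shows no such order.

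Of the 8 cyclins, 5 were higher in rumen than in forebrain and 5 lower than in liver. Each was 62.5% of the group, beside 19.5% and 20.3% of all genes tested. The mitotic cyclin CCNB1 stood at 10.5 and 10.2 CPM in rumen, 98.9 and 53.1 CPM in liver, and 2.68 and 2.09 CPM in forebrain, and CCNA2, the cyclin of S phase and G2, at 35.7 and 41.5 CPM in rumen, 132 and 76.2 CPM in liver, and 11.9 and 9.09 CPM in forebrain. Both had fully separated tissues in the order liver, rumen, forebrain. CCNB1 was 4.33-fold higher in rumen than in forebrain (adjusted p = 0.0075) and 7.34-fold lower than in liver (log2 fold change -2.88 ± 0.38 (SE), adjusted p = 0.00197). CCNB2 and CCNA2 followed, at 3.78-fold higher and 3.67-fold higher in rumen than in forebrain. The 2 E-type cyclins, which act at S phase entry, parted. CCNE1 stood at 1.3 and 2.42 CPM in rumen, 95 and 68 CPM in liver, and 4.88 and 2.53 CPM in forebrain, so that both rumen libraries lay below all others, and it was 43.6-fold lower in rumen than in liver (log2 fold change -5.45 ± 0.52 (SE), adjusted p = 0.000601). CCNE2 stood at 30.1 and 33.9 CPM in rumen, 28.4 and 30.3 CPM in liver, and 37.4 and 32.9 CPM in forebrain and was not called. The D-type cyclins, which link growth signals to the cycle, differed again. CCND1 stood at 16 and 18.4 CPM in rumen, 10.1 and 2.95 CPM in liver, and 2.11 and 3.03 CPM in forebrain, the 1 cyclin with both rumen libraries above every other library. It was 6.66-fold higher in rumen than in forebrain (adjusted p = 0.0207) and not called against liver (log2 fold change 1.41, adjusted p = 0.128). CCND3 stood at 38.9 and 30.1 CPM in rumen, 230.2 and 131 CPM in liver, and 17.2 and 15.6 CPM in forebrain and was 5.24-fold lower in rumen than in liver (adjusted p = 0.00239). CCND2 was not called anywhere, and its 2 liver libraries, at 16.4 and 4.56 CPM in liver, lay on both sides of rumen. Without Forebrain 2 the rumen calls of CCNA2 and CCNB1 above forebrain were lost, and those of CCNB2, CCND1 and CCND3 without any 1 of the forebrain and rumen libraries. Against liver, CCNA2 and CCNB2 were lower in rumen, but not without either rumen library. Reads of CCNA2 and CCND1 may be shared with the overlapping genes EXOSC9 and LTO1.

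Among the kinases, CDK6 and CDK4, the partners of D-type cyclins, were called in rumen against forebrain but not against liver. CDK6 stood at 9.11 and 12.7 CPM in rumen, 12.8 and 13.3 CPM in liver, and 0.894 and 0.649 CPM in forebrain. Rumen and liver were both far above forebrain and close to each other, and CDK6 was 14-fold higher in rumen than in forebrain (log2 fold change 3.81 ± 0.51 (SE), adjusted p = 0.00222), the widest such gap among cell cycle members, in all 6 fits that left out 1 library. Against liver it was not called (log2 fold change -0.26, adjusted p = 0.667). CDK4 stood at 122 and 128 CPM in rumen, 120.1 and 60.8 CPM in liver, and 49.3 and 66.2 CPM in forebrain and was 2.16-fold higher in rumen than in forebrain, a call close to the threshold (adjusted p = 0.0488) that was lost without any 1 of the forebrain and rumen libraries. CDK1, the mitotic kinase, stood at 6.66 and 8.9 CPM in rumen, 95.7 and 28.4 CPM in liver, and 1.71 and 3.9 CPM in forebrain, and CDK2, its S phase relative, at 8.04 and 11.9 CPM in rumen, 55.8 and 14.8 CPM in liver, and 2.77 and 2.81 CPM in forebrain. Both rumen libraries lay between forebrain and liver in each gene, with Liver 1 far above Liver 2. CDK1 was 7.97-fold lower in rumen than in liver (adjusted p = 0.0143), but not without either rumen library. CDC25B, a phosphatase that activates CDK1, stood at 31.5 and 32.1 CPM in rumen, 145 and 371 CPM in liver, and 8.86 and 9.38 CPM in forebrain. It was 8.11-fold lower in rumen than in liver (adjusted p = 0.00314) and 3.48-fold higher than in forebrain (adjusted p = 0.0203), the call above forebrain not without any 1 of the forebrain and rumen libraries. CDC25A, another phosphatase of the CDKs, stood at 2.98 and 1.33 CPM in rumen, 59.2 and 4.88 CPM in liver, and 2.52 and 0.866 CPM in forebrain, high in Liver 1 alone. It was called lower in rumen than in liver (adjusted p = 0.0447) and higher in liver than in forebrain, and both calls were lost without Liver 1 or either forebrain library, and that against liver also without either rumen library. CDC25C was lower in rumen than in liver, but not without Liver 1 or any 1 of the rumen and forebrain libraries. CDK7, CDC34 and CDC14B were not called.

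Of the 7 mitotic kinases, PLK1, AURKA and AURKB had all 3 calls, beside 3.59% of all genes tested. PLK1, a Polo-like kinase of mitotic entry, stood at 43.2 and 50.2 CPM in rumen, 129 and 103 CPM in liver, and 11.9 and 8.3 CPM in forebrain. AURKB, the kinase of the chromosomal passenger complex, stood at 41.1 and 49.6 CPM in rumen, 92 and 97.2 CPM in liver, and 14.7 and 11 CPM in forebrain, and AURKA, the kinase of spindle poles, at 11.5 and 15.4 CPM in rumen, 66.8 and 70.1 CPM in liver, and 4.31 and 3.54 CPM in forebrain. In all 3 the tissues were separated, liver first and forebrain last. PLK1 was 4.61-fold higher in rumen than in forebrain (log2 fold change 2.21 ± 0.29 (SE), adjusted p = 0.00199) and 2.49-fold lower than in liver, and AURKA 3.42-fold higher and 5.1-fold lower. AURKB was 3.53-fold higher in rumen than in forebrain (adjusted p = 0.00281) and 2.09-fold lower than in liver. AURKC, known mainly from meiosis, stood at 27.7 and 24.4 CPM in rumen, 13.8 and 30.2 CPM in liver, and 3.98 and 5.05 CPM in forebrain and was 5.75-fold higher in rumen than in forebrain, with its liver libraries on both sides of rumen. PLK4, which controls centriole duplication, was lower in rumen than in liver (adjusted p = 0.00724) and not called against forebrain (log2 fold change -0.30, adjusted p = 0.39). PLK2 and PLK3, stress-responsive relatives, were not called. PLK2 stood at 176 and 177 CPM in rumen, 74.8 and 241 CPM in liver, and 121 and 116 CPM in forebrain, with the liver libraries on both sides of rumen and forebrain. Reads of AURKC and PLK1 may be shared with the overlapping genes ZNF805 and ERN2. The rumen against forebrain call of AURKA was lost without Forebrain 2 and that of AURKC without Rumen 1 or either forebrain library. Against liver, those of PLK1, AURKB and PLK4 were lost without either rumen library.

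Of the 9 checkpoint and anaphase genes, BUB1, BUB1B, CDC20 and UBE2C had all 3 calls, beside 3.59% of all genes tested. BUB1, a checkpoint kinase of the kinetochore, stood at 32.1 and 41.3 CPM in rumen, 145 and 154 CPM in liver, and 4.8 and 6.42 CPM in forebrain. UBE2C works with the anaphase-promoting complex (APC/C) to place ubiquitin on target proteins. It stood at 66 and 81.2 CPM in rumen, 214 and 289 CPM in liver, and 8.21 and 7.29 CPM in forebrain. CDC20, the mitotic activator of that complex, stood at 32 and 27.2 CPM in rumen, 146 and 93.2 CPM in liver, and 7.89 and 4.91 CPM in forebrain. All 3 had separated tissues. UBE2C was 9.49-fold higher in rumen than in forebrain (log2 fold change 3.25 ± 0.27 (SE), adjusted p = 0.000489) and 3.42-fold lower than in liver (adjusted p = 0.00261). BUB1 was 6.52-fold higher in rumen than in forebrain and 4.08-fold lower than in liver, BUB1B 3.63-fold higher and 4.29-fold lower, and CDC20 4.63-fold higher and 4.04-fold lower. Among the standing subunits of the APC/C, CDC27 stood at 59.2 and 74.1 CPM in rumen, 77.9 and 61.3 CPM in liver, and 87 and 81 CPM in forebrain and CDC26 at 29.6 and 33.4 CPM in rumen, 28.6 and 16.1 CPM in liver, and 29.2 and 27.6 CPM in forebrain, and neither was called, nor was BUB3. CDC16 and CDC23 were lower in rumen than in liver (adjusted p = 0.0463 and adjusted p = 0.0191). The call of CDC20 against liver was lost without Rumen 2, that of CDC23 without either rumen library and that of CDC16 without any 1 of the rumen and forebrain libraries.

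Of the 16 centromere and kinetochore genes, 8 were higher in rumen than in forebrain, 5 lower in rumen than in liver and 12 higher in liver than in forebrain. These shares of 50%, 31.2% and 75% stood beside 19.5%, 20.3% and 29.4% of all genes tested. CENPA, the histone that marks centromeres, stood at 44.5 and 44.2 CPM in rumen, 113 and 145 CPM in liver, and 6.34 and 9.24 CPM in forebrain. CENPF, a large kinetochore protein that builds up before mitosis, stood at 54.6 and 52.1 CPM in rumen, 616 and 564 CPM in liver, and 14.9 and 14.6 CPM in forebrain. Both had fully separated tissues. CENPF was 11.1-fold lower in rumen than in liver (log2 fold change -3.47 ± 0.21 (SE), adjusted p = 0.000227) and 3.62-fold higher than in forebrain (adjusted p = 0.00108). CENPA was 5.68-fold higher in rumen than in forebrain (log2 fold change 2.51 ± 0.29 (SE), adjusted p = 0.00127) and 2.91-fold lower than in liver. CENPW stood at 8.11 and 14.8 CPM in rumen, 32.7 and 14.1 CPM in liver, and 1.3 and 0.938 CPM in forebrain and was 10.2-fold higher in rumen than in forebrain, with overlapping rumen and liver libraries. CENPH, CENPK, CENPQ and CENPT were likewise higher in rumen than in forebrain without a call against liver. CENPX stood at 19 and 22.8 CPM in rumen, 143 and 109.9 CPM in liver, and 28.7 and 29.2 CPM in forebrain, with rumen below forebrain and not called there (log2 fold change -0.47, adjusted p = 0.173), and was 6.06-fold lower than in liver (adjusted p = 0.00067). CENPC, which anchors the inner kinetochore, stood at 30.8 and 39.5 CPM in rumen, 52.1 and 36.2 CPM in liver, and 29.6 and 25 CPM in forebrain and was not called, nor were CENPM, CENPO and CENPS. CENPL was 2.38-fold higher in rumen than in forebrain and 2.64-fold lower than in liver, both calls lost without either forebrain library, that against forebrain also without Rumen 1 and that against liver also without Rumen 2. CENPN was 4.8-fold lower in rumen than in liver, but not without either rumen library. CENPI and CENPP passed in liver against forebrain alone (adjusted p = 0.0316 and adjusted p = 0.0384), and lost that call without any 1 of the forebrain and rumen libraries, CENPI also without Liver 1 and CENPP without Liver 2. Against forebrain, the rumen call of CENPW was lost without either forebrain library, that of CENPK without Rumen 2 or either forebrain library, and those of CENPH, CENPQ and CENPT without any 1 of the forebrain and rumen libraries. Against liver, that of CENPA was lost without either rumen library.

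All 6 condensin genes were lower in rumen than in liver and higher in liver than in forebrain, and 4 were higher in rumen than in forebrain. The shares of all genes tested were 20.3%, 29.4% and 19.5% in the same order. NCAPD2, a subunit of condensin I, stood at 72 and 73 CPM in rumen, 224 and 256 CPM in liver, and 12.4 and 13.4 CPM in forebrain. NCAPH, the kleisin of condensin I, stood at 11.5 and 14.1 CPM in rumen, 99.4 and 131 CPM in liver, and 3.25 and 3.83 CPM in forebrain. No libraries of different tissues overlapped in either gene. NCAPD2 was 5.62-fold higher in rumen than in forebrain (log2 fold change 2.49 ± 0.22 (SE), adjusted p = 0.00055) and 3.31-fold lower than in liver (adjusted p = 0.00139). NCAPH was 9.04-fold lower in rumen than in liver (adjusted p = 0.000504). NCAPG2 and NCAPH2 of condensin II were 3.64-fold higher and 4.21-fold higher in rumen than in forebrain. NCAPG departed, at 78.1 and 97.6 CPM in rumen, 218 and 229.7 CPM in liver, and 107 and 107 CPM in forebrain. Its forebrain libraries lay above both rumen libraries, without a call (log2 fold change -0.29, adjusted p = 0.322). Its reads may be shared with the overlapping genes DCAF16 and LCORL. NCAPD3 was not called between rumen and forebrain (log2 fold change 0.73, adjusted p = 0.135). Against forebrain, the rumen call of NCAPH2 was lost without Forebrain 2. Against liver, those of NCAPD3 and NCAPH2 were lost without either rumen library and that of NCAPG without Rumen 1. The liver against forebrain call of NCAPG was lost without either forebrain library.

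In all, 22 of the 85 cell cycle members were called in no comparison. They were CCND2, CCNE2, CDC14B, CDC34, CDK7, CENPC, CENPM, CENPO, CENPS, RFC5, E2F3, CDC7, GINS1, PLK2, PLK3, ORC2, ORC3, ORC5, ORC6, BUB3, CDC26 and CDC27. By role, they were 4 of 7 origin genes, 4 of 16 centromere genes, 3 of 9 checkpoint and anaphase genes, 3 of 10 kinases and phosphatases, 2 of 8 cyclins, 2 of 7 mitotic kinases, 2 of 5 helicase activation genes, 1 of 5 E2F factors and 1 of 4 clamp loader genes, and no MCM, condensin or reductase gene. Among all genes tested, 31.8% were called in no comparison. A missing call does not show that the levels were alike, since each tissue had only 2 libraries. Several of these genes also differed widely between the liver libraries.

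The liver libraries disagreed on many genes, and on cell cycle members at a share slightly below that of all genes. The 2 libraries differed by more than 1.5-fold in 8 of the 85 members in rumen (9.41%), 42 in liver (49.4%) and 10 in forebrain (11.8%). Over all genes tested the shares were 20.8%, 54.6% and 18%. In liver, 27 members were more than 1.5-fold higher in Liver 1 and 15 in Liver 2. Of the 11478 genes tested, 3241 were so in Liver 1 and 3027 in Liver 2. By role, the members past 1.5-fold in Liver 1 were 6 of 8 cyclins, 6 of 10 kinases and phosphatases, 5 of 16 centromere genes, 3 of 6 MCM genes, 2 of 4 clamp loader genes, 2 of 5 E2F factors, 2 of 9 checkpoint and anaphase genes and 1 of 7 origin genes. Those in Liver 2 were 3 of 7 mitotic kinases, 3 of 16 centromere genes, 2 of 6 condensin genes, 2 of 10 kinases and phosphatases, 2 of 7 origin genes, 1 of 4 clamp loader genes, 1 of 5 helicase activation genes and 1 of 9 checkpoint and anaphase genes. CDC25A had the widest gap toward Liver 1, followed by CDK2, at 55.8 and 14.8 CPM in liver. PLK3 had the widest gap toward Liver 2, at 2.46 and 15.2 CPM in liver, followed by CENPT at 67.3 and 247 CPM in liver and CDC45 at 46.9 and 158 CPM in liver. The summed level of the erythroid genes was 11930 CPM in Liver 1 and 7305 CPM in Liver 2, and 5 of the 10 were more than 1.5-fold higher in Liver 1, among them TFRC at 528 and 28.5 CPM in liver and HEMGN at 1096 and 176 CPM in liver. Their part in the gap was not tested. The summed level of the 85 members was 9231 CPM in Liver 1 and 8763 CPM in Liver 2.

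**Figure D4:**
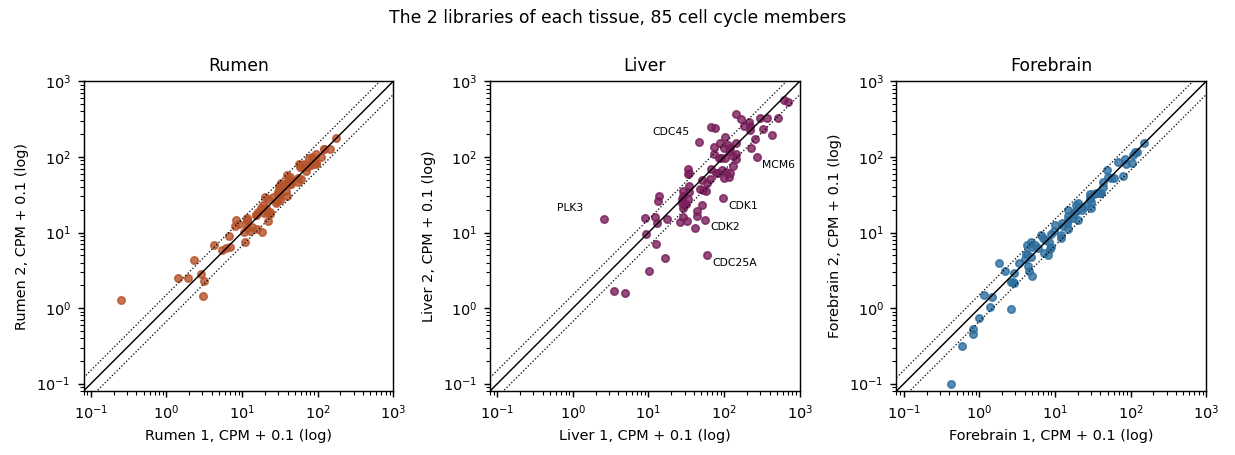
Each point is 1 of the 85 cell cycle members, placed by its CPM + 0.1 in library 1 (x, log scale) and library 2 (y, log scale) of a tissue; the solid line marks equal values and dotted lines 1.5-fold. Rumen and forebrain pairs hug the line, with 8 and 10 members past 1.5-fold, and the liver pair scatters, with 42, among them CDC25A, CDK1 and CDK2 toward Liver 1 and PLK3 and CDC45 toward Liver 2.

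Other genes of the pathway, from lists by function, were counted in the same way. Of 29 further replication genes, all tested, 9 were higher and 0 lower in rumen than in forebrain, 0 higher and 20 lower than in liver, and 23 higher and 0 lower in liver than in forebrain. The 31% higher in rumen than in forebrain stood beside 19.5% of all genes, the 69% lower than in liver beside 20.3%, and the 79.3% higher in liver than in forebrain beside 29.4%. Their median log2 fold changes were 0.56, -1.22 and 1.47. The polymerase subunit POLD1 stood at 106 and 93.6 CPM in rumen, 302 and 429 CPM in liver, and 12 and 17.7 CPM in forebrain and the chromatin factor UHRF1 at 45.6 and 46.8 CPM in rumen, 125 and 89.5 CPM in liver, and 4.96 and 6.64 CPM in forebrain. In both the tissues were separated, liver first and forebrain last. CLSPN, a checkpoint adaptor of the fork, was low in rumen and forebrain, at 0.765 and 1.09 CPM in rumen, 64 and 45.5 CPM in liver, and 0.976 and 0.649 CPM in forebrain, and was 58.4-fold lower in rumen than in liver (adjusted p = 0.00034). The clamp PCNA stood at 127 and 136 CPM in rumen, 371 and 261 CPM in liver, and 87.3 and 88.6 CPM in forebrain and was called against liver but not against forebrain (log2 fold change 0.58, adjusted p = 0.1), and its call against liver was lost without either rumen library. Of 26 tested mitosis genes, 19 were higher and 0 lower in rumen than in forebrain, 0 higher and 17 lower than in liver, and 25 higher and 0 lower in liver than in forebrain, with medians of 2.01, -1.33 and 3.44. These were 73.1%, 65.4% and 96.2% of the list, beside the same shares of all genes. The kinesin KIF20A, whose span overlaps that of CDC23, stood at 65.4 and 71.4 CPM in rumen, 92.6 and 87.6 CPM in liver, and 4.23 and 2.74 CPM in forebrain. It was 19.6-fold higher in rumen than in forebrain (adjusted p = 0.000345) and not called against liver (log2 fold change -0.40, adjusted p = 0.264). Without any 1 of the forebrain and rumen libraries, fewer genes of both lists were higher in rumen than in forebrain, as were fewer of all genes. Without either liver library, more of both lists and of all genes were called there, in either direction. With only the 2 tissues in the fit, 15 replication genes were higher in rumen than in forebrain and 4 lower. In that fit 22 mitosis genes were higher and 1 lower, and of 10923 genes 3568 were higher and 3591 lower. In liver against forebrain, fewer replication genes and fewer of all genes were higher without either forebrain library. Against liver, fewer genes of both lists and fewer of all genes were lower in rumen without either rumen library. By DESeq2, 2 of the replication genes were lower in rumen than in forebrain and none of either list was higher in rumen than in liver. No gene of these lists had an unadjusted p below 0.05 opposite to its list's calls, other than 2 replication genes lower in rumen than in forebrain.

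CDK inhibitors restrain the cycle. Of 10 tested genes of the inhibitor and RB family list, 4 were higher and 2 lower in rumen than in forebrain, 2 higher and 5 lower than in liver, and 4 higher and 4 lower in liver than in forebrain. These were 40% and 20% of the list in rumen against forebrain, 20% and 50% in rumen against liver, and 40% and 40% in liver against forebrain, beside 19.5% and 19.9%, 20.1% and 20.3%, and 29.4% and 25.9% of all genes. Left-out libraries moved these counts, as they moved those of all genes. Against forebrain, fewer genes of the list were higher in rumen without either forebrain library or without Rumen 1. Fewer were lower there without any 1 of the rumen and forebrain libraries. Against liver, fewer were lower in rumen without any 1 of these libraries, and fewer were higher without Rumen 1. In liver against forebrain, fewer were lower without any 1 of the rumen and forebrain libraries. With only the 2 tissues in the fit, 2 were lower in rumen than in liver and 1 lower in liver than in forebrain, and without scaling factors 3 were lower in rumen than in liver. CDKN2B, an inhibitor of CDK4 and CDK6, stood at 30.6 and 41.2 CPM in rumen, 0.223 and 0 CPM in liver, and 1.46 and 0.794 CPM in forebrain, with both rumen libraries above all others and 3 counts in the 2 liver libraries together. It was 31.7-fold higher in rumen than in forebrain (log2 fold change 4.99 ± 0.75 (SE), adjusted p = 0.00343). CDKN2D, of the same family, stood at 25.9 and 22.9 CPM in rumen, 142 and 108 CPM in liver, and 197 and 200.1 CPM in forebrain. Here rumen was lowest and forebrain highest, and CDKN2D was 8.13-fold lower in rumen than in forebrain (log2 fold change -3.02 ± 0.25 (SE), adjusted p = 0.000458) and 5.11-fold lower than in liver (adjusted p = 0.00073). CDKN2C stood at 20.7 and 22.4 CPM in rumen, 15.9 and 21.8 CPM in liver, and 2.93 and 2.81 CPM in forebrain and was 7.48-fold higher in rumen than in forebrain (adjusted p = 0.00203). CDKN1B, which holds resting cells out of the cycle, stood at 100.2 and 98.6 CPM in rumen, 110.3 and 156 CPM in liver, and 228 and 234 CPM in forebrain. Forebrain was above both other tissues, and CDKN1B was 2.33-fold lower in rumen than in forebrain, a call lost without any 1 of the forebrain and rumen libraries. CDKN1C, an imprinted inhibitor, stood at 218 and 224 CPM in rumen, 348 and 363 CPM in liver, and 84.6 and 93 CPM in forebrain, in the order of the cycle genes. It was 2.49-fold higher in rumen than in forebrain (adjusted p = 0.00342), but not without Forebrain 1.

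**Figure D5:**
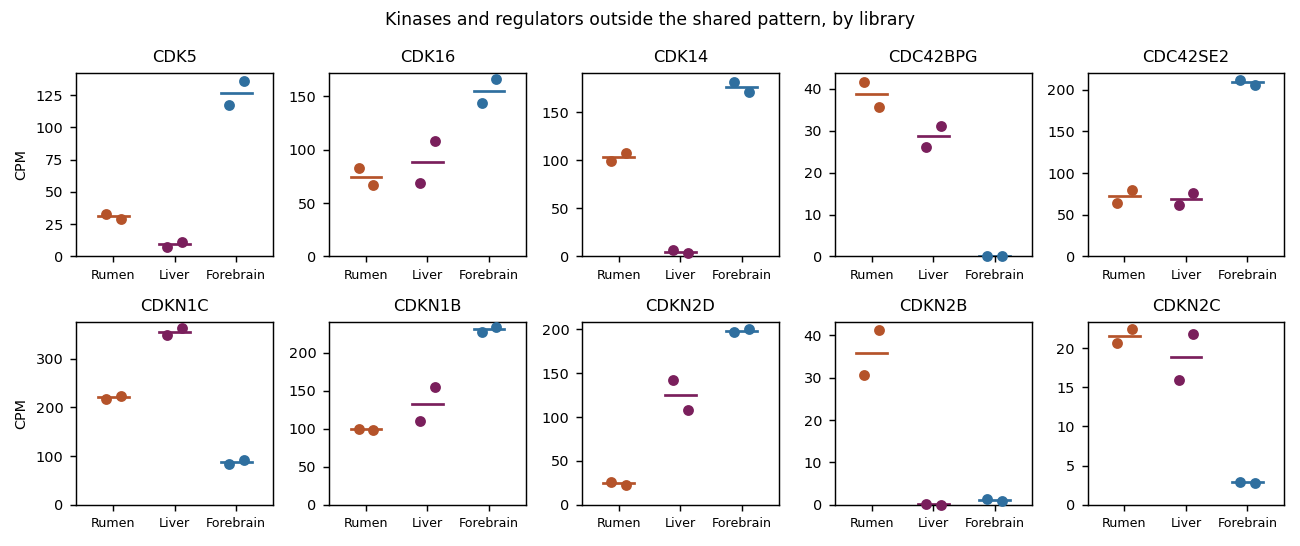
Points give the CPM of 10 genes in each of the 2 libraries per tissue, lines the tissue mean, with a linear axis from 0: 5 members outside the cell cycle roles (top) and 5 CDK inhibitors (bottom). CDK5, CDK16, CDC42SE2, CDKN1B and CDKN2D are highest in forebrain, CDK14 is low in liver, CDC42BPG is near 0 in forebrain, and CDKN2B is high in rumen.

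Of the members outside the cell cycle roles, 36 were tested. In rumen against forebrain 7 were higher and 4 lower, in rumen against liver 4 higher and 5 lower, and in liver against forebrain 12 higher and 8 lower. The shares of 19.4% and 11.1%, 11.1% and 13.9%, and 33.3% and 22.2% stood beside those of all genes, 19.5% and 19.9%, 20.1% and 20.3%, and 29.4% and 25.9%. Their summed level was 1992 and 1981 CPM in rumen, 2123 and 2695 CPM in liver, and 2212 and 2240 CPM in forebrain. CDK5, a kinase that works in neurons rather than in the cycle, stood at 32.8 and 29.1 CPM in rumen, 7.67 and 11.6 CPM in liver, and 117 and 136 CPM in forebrain. Forebrain was highest and liver lowest, with no overlap. It was 4.08-fold lower in rumen than in forebrain (log2 fold change -2.03 ± 0.28 (SE), adjusted p = 0.00246) and 3.21-fold higher than in liver (adjusted p = 0.00468). CDK5R1, an activator of CDK5 in neurons, had 3 counts in Rumen 1 and none in Rumen 2, against 131 and 9.25 CPM in liver and 12.4 and 9.17 CPM in forebrain. It passed as lower in rumen in both comparisons (adjusted p = 0.0242 against forebrain), and these calls were lost without any 1 of the forebrain and rumen libraries against forebrain and without Rumen 2 against liver. CDK14, a membrane-linked kinase of WNT signalling, stood at 99.2 and 107 CPM in rumen, 6.62 and 3.53 CPM in liver, and 182 and 171 CPM in forebrain. Liver was far below the other tissues, and CDK14 was 20.4-fold higher in rumen than in liver (log2 fold change 4.35 ± 0.36 (SE), adjusted p = 0.000373). CDK2AP1 was 2.84-fold higher in rumen than in liver (adjusted p = 0.00397). CDK16 was 2.08-fold lower in rumen than in forebrain, but not without any 1 of the forebrain and rumen libraries. CDK12 and CDK5RAP2 were higher in rumen than in forebrain, with the same limit, and the call of CDK12 was also lost without scaling factors. CDK3 stood at 30.4 and 35.3 CPM in rumen, 29.3 and 218 CPM in liver, and 6.5 and 3.17 CPM in forebrain, with a wide gap between the liver libraries. CDK11B was called lower in rumen than in liver (adjusted p = 0.00546), but not without Rumen 2. Whether its reads are shared with any near-identical copy was not tested. CDK18 and CDK2AP2 were also lower in rumen than in liver (adjusted p = 0.0163 and adjusted p = 0.0464), neither without either rumen library. The call of CDK2AP2 was also lost without either forebrain library, under RLE scaling, without scaling factors and with only the 2 tissues in the fit. CDK19 and CDK5RAP3 were called in liver against forebrain alone, as higher. Both calls were lost without either forebrain library, that of CDK19 also without Liver 1, and that of CDK5RAP3 also without either rumen library, without scaling factors and with only the 2 tissues. CDK9, CDK10, CDK13, CDK20 and CDK5RAP1 were called in no comparison.

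Genes of the CDC42 family, which shape the actin cytoskeleton, closed the set. CDC42BPG, a kinase bound by CDC42, stood at 41.6 and 35.7 CPM in rumen, 26.1 and 31.1 CPM in liver, and 0.163 and 0.144 CPM in forebrain, with 2 counts in each forebrain library. It was higher in rumen and in liver than in forebrain (adjusted p = 0.000251 and adjusted p = 7.25e-05). CDC42EP1 was 6.1-fold higher in rumen than in forebrain, but not without Forebrain 1. CDC42SE2 stood at 64.2 and 80.2 CPM in rumen, 61.2 and 76.5 CPM in liver, and 212 and 206 CPM in forebrain. Forebrain was above both other tissues, and CDC42SE2 was 2.89-fold lower in rumen (adjusted p = 0.00375), but not without Rumen 1. CDC42SE1 stood at 56.5 and 58.6 CPM in rumen, 30.6 and 22.5 CPM in liver, and 25.9 and 23.7 CPM in forebrain. It was higher in rumen than in forebrain and in liver (adjusted p = 0.013 and adjusted p = 0.0168), against forebrain not without any 1 of the forebrain and rumen libraries and against liver not without either rumen library. CDC42EP2 was 4.16-fold higher in rumen than in forebrain, with the same limit against forebrain. CDC42 itself stood at 336 and 311 CPM in rumen, 263 and 177 CPM in liver, and 423 and 410.0 CPM in forebrain, and it was 1.89-fold lower in liver than in forebrain, but not without any 1 of the forebrain and rumen libraries. Among the remaining names, MCM3AP, an RNA export factor and no helicase, was 2.17-fold higher in rumen than in forebrain and 1.89-fold lower than in liver, neither without any 1 of the forebrain and rumen libraries. CDC123 and CDC37L1 were lower in liver than in forebrain (adjusted p = 0.0376 and adjusted p = 0.041) and CDC73, at 13.9 and 11.2 CPM in rumen, 47.2 and 15.2 CPM in liver, and 10.4 and 4.69 CPM in forebrain, was higher in liver (adjusted p = 0.0351), none of them without any 1 of the forebrain and rumen libraries and CDC73 not without Liver 1. The calls of CDC123 and CDC73 in liver against forebrain were also lost with only the 2 tissues in the fit, and that of CDC73 without scaling factors. The call of MCM3AP against liver was lost under both of these settings. AURKAIP1, CCNB1IP1, CDC37, CDC40, CDC5L, CDC42BPA, CDC42EP3 and CDC42EP4 were called in no comparison. CDC20B, a relative of CDC20, was not tested, with 2 counts in Forebrain 2 and none in the other libraries.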

How the data were processed

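The authors deposited unscaled whole-number counts for each gene symbol and library. The labels' protocols name a NEBNext Ultra kit. The submitters' processing notes name HISAT2 2.0.5, featureCounts 1.5.0-p3 and edgeR 3.18.1. The sources used here give no build, annotation or strand setting, and so overlapping genes may share reads. RefSeq gene spans (ARS-UCD2.0) were used only to name overlapping coding genes: 122 members matched, and 25 overlapped one. Besides the members flagged above, CDC23, CDC25C, CDC37L1, CDC73, CDK5RAP3, CENPP, MCM3AP, MCM8 and NCAPD3 were called and overlapped a coding gene. Their reads may be shared in the same way.

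Counts were fitted with edgeR 4.0.16 in R 4.3.3 (quasi-likelihood test, TMM factors of 0.812 to 1.2, filterByExpr keeping 11478 genes, 1 mean per tissue, no block, 3 residual degrees of freedom). P-values were Benjamini-Hochberg adjusted over all tested genes, with a threshold of 0.05. Folds are edgeR's on the linear scale. The scripts were run on simulated data with changes in rumen alone, which checks the code and not the results. A count of 3 in 1 library equals 0.193 to 0.244 CPM, a guide to counting error only. Alternatives were other scaling, no filter, DESeq2 1.42.0, fits of only 2 tissues, a replicate block and leaving out each library. The members, roles and lists were chosen with earlier results of these data known, and CCNB1IP1 was placed in its role after the symbols were seen. Genes were named by role, by a list of core genes, by direction against their role group and by the 2 largest called changes per role. Promoter motifs were not analysed here. Values of some marker genes are not reported here.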

Additional observations from a re-analysis of the deposited data

How the results depend on the processing

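The counts moved with single libraries. For rumen against forebrain, such fits called 20 to 65 members higher and 1 to 19 lower, and 18 to 54 cell cycle members higher and 0 to 7 lower. In rumen against liver they called 3 to 12 members higher and 22 to 64 lower, and 0 to 6 cell cycle members higher and 22 to 53 lower. In liver against forebrain they called 49 to 78 members higher and 3 to 14 lower, and 43 to 64 cell cycle members higher and 0 to 5 lower. Fits that left out a liver library gave the high ends. Without TMM factors, 9 members were lower in rumen than in forebrain, beside 2585 of all 11478 genes. In liver against forebrain, 14 members and 5 cell cycle members were then lower, beside 3946 of all genes. All-gene median log2 fold changes were then -0.16 for rumen against forebrain, 0.23 for rumen against liver and -0.34 for liver against forebrain. By DESeq2, 8 members were lower in rumen than in forebrain, beside 2727 of all 12820 genes. With only the 2 compared tissues in the fit, 17 members and 5 cell cycle members were lower in rumen than in forebrain, beside 3591 of 10923 genes. For liver against forebrain, such a fit called 0 cell cycle members lower, beside 2690 of 11203 genes. The causes were not tested. The log2 fold changes of 6 results changed sign to a call without 1 liver library. Without Liver 1 and without Liver 2, rumen against liver gave -1.20 and 0.70 for CDK5RAP3, -0.47 and 0.60 for CENPS, -0.45 and 1.24 for PLK2 and 0.68 and -0.63 for RPA3. Liver against forebrain gave -1.1 and 0.64 for CDC37 and 1.02 and -0.67 for PLK2. Libraries with the same replicate number did not deviate together from their tissue means, with correlations of deviations of 0.08, -0.06 and -0.00. With 2 libraries per tissue, these values cannot tell whether same-numbered libraries came from the same fetus. With the number as a replicate block, 43 members were higher in rumen than in forebrain and 44 lower in rumen than in liver. In liver against forebrain, 68 were higher. Over all 11478 genes these counts were 1990, 2004 and 3055. Of the cell cycle calls, those of CDK4, CENPL, CENPQ, E2F4, GINS3 and GINS4 in rumen against forebrain, those of CDC16, CDC25C, E2F6 and MCM8 in rumen against liver, and that of CENPP in liver against forebrain were not made under this block. Of the other members' calls, those of CDK2AP2 and MCM3AP in rumen against liver and those of CDC123, CDC37L1, CDC42EP2 and CDK16 in liver against forebrain were not made.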
